A study of Saccharomyces cerevisiae with 6 samples.

Results

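Domain III of 25S rRNA was examined here as it lies within the 35S pre-rRNA of budding yeast, Saccharomyces cerevisiae. Its members are the 430 nucleotides 1451 to 1880 of 25S, which are nucleotides 4702 to 5131 of the 6858 nucleotides of the 35S transcript, and they were chosen by position alone. All 430 have a reactivity value in the mutant described next and 429 have one in the other strain, where U1871 has none. The RNA came from particles purified through TAP-tagged Mrd1, which binds RNA in early pre-ribosomes and is needed to make 18S rRNA. The mutant carries mrd1-deltaRDB5-TAP, read here as Mrd1 lacking the RNA-binding domain RBD5, and also a copy of HA-MRD1 under a GAL promoter. It has 2 libraries with the reagent 1M7 and 2 with its solvent DMSO. It is set against Erb1-depleted cells, which carry MRD1-TAP and a 3HA-tagged ERB1 under a GAL promoter, with 2 libraries of 1M7 and none labelled DMSO. Both are BY4741 derivatives. The labels name glucose and galactose/raffinose media but do not say which strain was in which medium or for how long. A strain with neither change was not analysed here, so what RBD5 loss does and what Erb1 depletion does cannot be told apart.

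The ribosomal DNA unit holding this sequence is listed as RDN37-1 and RDN37-2 on chromosome XII in RefSeq's annotation of assembly R64, with the 25S genes RDN25-1 and RDN25-2. The ribosomal DNA is a repeat of near-identical copies, so reads cannot be assigned to one copy. Domain III is an RNA domain of the large subunit that lies on its solvent side, near the exit of the peptide tunnel, and it binds the ribosomal protein Rpl25 (uL23). In nucleolar precursors of the large subunit it settles into place after domains I, II and VI. Erb1 acts in those precursors together with Nop7 and Ytm1. 1M7 reacts with the ribose of nucleotides that move freely. The adduct halts reverse transcription, so a high SHAPE reactivity marks a flexible nucleotide. The sequence of 25S is also part of 27S pre-rRNA and of mature 25S, and the sheet does not say from which of these molecules a stop came.

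The deposited sheet gives 1 value per nucleotide and strain, with the 2 libraries of a strain not told apart and no read numbers. Stop and read counts per library were not analysed here. With this sheet alone the depth behind a value is unknown, no difference could be set against the spread between libraries, and no test was made. Reactivity is given as a raw score, whose mean over the transcript is 0 in each strain, and as the authors' normalized score, in which negative raw scores are 0. A nucleotide was counted as modified where the posterior probability from the authors' BUM_HMM model was at least 0.95. Differences were called by the rule of the authors' deltaSHAPE columns. The raw scores smoothed over 3 nt had to differ by at least 1 SD of all such differences over the transcript, at no fewer than 3 nucleotides of a window of 5 nt. The standardized difference (mutant minus Erb1-depleted, after smoothing) is in units of that SD. A call also needed a deposited Z-factor above 0, by which deltaSHAPE sets a difference against the errors of both scores. Those errors were not analysed here, and a call is no test over libraries.

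The sequences on which the differences turned are shown first, with capitals for nucleotides both called and modified in either strain, 4 nt on either side, and T written for U as deposited. All are on the transcribed strand, 5' to 3'. Those of the next 7 lines were higher in Erb1-depleted cells.
25S 1457 to 1470: ttcaAaTGAGaact
25S 1477 to 1493: actgAAgTGGGGAaagg
25S 1503 to 1513: aacaGCAgttg
25S 1530 to 1541: tcctAAgAgatg
25S 1583 to 1596: atcgAaaggGaatc
25S 1638 to 1652: acgtAActgAAtgtg
25S 1691 to 1701: ttctTAAcagc
The 3 that were higher in the mutant all lie nearer the 3' end.
25S 1773 to 1781: ccggTgcgc
25S 1838 to 1846: gataAccgc
25S 1863 to 1871: gaacAgcct

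Domain III had low reactivity in both strains. Normalized reactivity averaged 0.116 (SD over nucleotides 0.227) in the mutant and 0.150 (SD 0.264) in Erb1-depleted cells. Over the rest of 25S the means were 0.209 in the mutant and 0.236 in Erb1-depleted cells. In domain III 287 nucleotides (66.7%) of the mutant and 268 (62.5%) of Erb1-depleted cells had a normalized score of 0, against 50.7% in each strain over the rest of 25S. Scores of at least 0.5 were reached by 36 nucleotides (8.37%) in the mutant and 58 (13.5%) in Erb1-depleted cells, and over the rest of 25S by 16.1% in the mutant and 20.3% in Erb1-depleted cells. Low reactivity was not confined to domain III. The adjoining 430 nt on its 3' side (25S 1881 to 2310) had means of 0.131 in the mutant and 0.107 in Erb1-depleted cells. The 430 nt on its 5' side (25S 1021 to 1450) had 0.189 in the mutant and 0.223 in Erb1-depleted cells.

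By the posterior, 64 of 430 nucleotides were modified in the mutant (14.9%, Wilson 95% interval 11.8 to 18.6), where 18.5% of the transcript was. In Erb1-depleted cells 67 of 430 were modified (15.6%, interval 12.5 to 19.3), where 21.1% of the transcript was. These intervals treat nucleotides as independent and cover counting only. Both strains shared 45 modified nucleotides, which is 70.3% of the mutant's and 67.2% of those of Erb1-depleted cells. A further 19 were found in the mutant only and 22 in Erb1-depleted cells only. Over the whole transcript 80.9% of the mutant's modified nucleotides and 71.1% of those of Erb1-depleted cells were shared. Across the 429 nucleotides with a value in both strains, raw scores had a Pearson r of 0.815 (0.845 over the rest of 25S). This is a description, since nucleotides are not replicates and the strains may share control libraries.

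**Figure D1:**
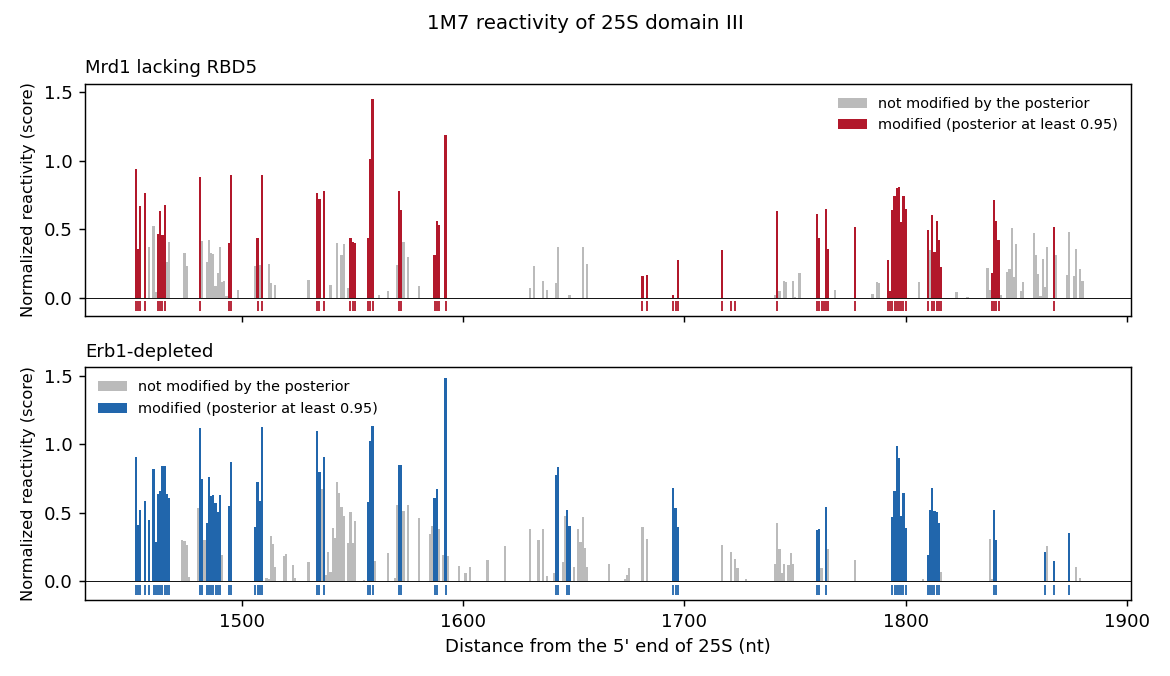
Normalized reactivity (score, bars) of each nucleotide of domain III against its distance from the 5' end of 25S, in the mutant (above) and Erb1-depleted cells (below). Coloured bars and ticks under the axis mark nucleotides modified by the posterior, 64 in the mutant and 67 in Erb1-depleted cells, and the highest bars are A1559 in the mutant and G1592 in Erb1-depleted cells.

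The most reactive nucleotides were largely common to the strains. In the mutant the highest normalized reactivities were those of A1559 (1.45) and G1592 (1.19), for which Erb1-depleted cells had 1.14 and 1.49. A1452 had 0.937 in the mutant and 0.908 in Erb1-depleted cells, A1509 0.893 and 1.13, and U1495 0.892 and 0.871. A1481 followed with 0.883 in the mutant and 1.12 in Erb1-depleted cells. The list was completed by A1797 (0.806 and 0.899), A1571 (0.776 and 0.847), A1537 (0.776 and 0.906) and U1840 (0.716 and 0.523). All 10 were modified in both strains. In Erb1-depleted cells A1534 (0.763 in the mutant and 1.10 in Erb1-depleted cells), G1796 (0.80 and 0.991), U1572 (0.642 and 0.853) and A1465 (0.676 and 0.845) were among the 10 highest instead of A1797, A1571, A1537 and U1840. Each list takes at most 1 nucleotide per 5 nt, and G1796 and U1572 are neighbours of A1797 and A1571. A1534 and A1537 also lie within 5 nt of each other. By this spacing A1537 (0.906) gave way to A1534 in Erb1-depleted cells, and A1534 (0.763) to A1537 in the mutant.

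Adenosines carried most of the modification, 54.7% of it in the mutant and 61.2% in Erb1-depleted cells. Over the rest of 25S they carried 49.2% and 49.1%. Of 109 adenosines, 35 were modified in the mutant (32.1%) and 41 in Erb1-depleted cells (37.6%). Over the rest of 25S 36.7% of adenosines were modified in the mutant and 40.3% in Erb1-depleted cells. A high rate at adenosines was thus not particular to domain III. Of 106 uridines 17 were modified in the mutant and 11 in Erb1-depleted cells. Modified guanosines were fewer in the mutant, with 6 of 123 there (4.88%) and 13 in Erb1-depleted cells (10.6%). Of 92 cytidines 6 were modified in the mutant and 2 in Erb1-depleted cells. Outside the domain guanosines of 25S showed the same direction, with 12.6% modified in the mutant and 16.7% in Erb1-depleted cells, while uridines were equal there, with 149 modified in each strain.

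There were 6 runs of at least 3 adjacent nucleotides modified in both strains by the posterior. In 5 of them mean normalized reactivity was 0.480 to 0.968 in the mutant and 0.534 to 0.915 in Erb1-depleted cells, and in the other, 1695 to 1697, it was 0.0994 in the mutant and 0.538 in Erb1-depleted cells. Of the 5, the 3 with the highest means in Erb1-depleted cells are shown with the run in capitals.
25S 1790 to 1804: gcccGTGAAAAtcca
25S 1553 to 1563: tttcAAAggcc
25S 1458 to 1469: tcaaATGAgaac
The longest, nucleotides 1794 to 1800, had a mean normalized reactivity of 0.704 in the mutant and 0.649 in Erb1-depleted cells, with no nucleotide called. Nucleotides 1557 to 1559 had 0.968 in the mutant and 0.915 in Erb1-depleted cells. Nucleotides 1462 to 1465 had 0.557 in the mutant and 0.748 in Erb1-depleted cells, and 3 of the 4 were called higher in Erb1-depleted cells. The longest stretches without a modified nucleotide in either strain were 1593 to 1641 (49 nt), 1649 to 1680 (32 nt, 71.9% G and C) and 1510 to 1533 (24 nt). Over 1593 to 1641 normalized reactivity averaged 0.00991 in the mutant and 0.0416 in Erb1-depleted cells.

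The sequence was folded alone in silico to see how reactivity lay against predicted pairing. The prediction leaves out proteins and the rest of the rRNA, so it is a frame for description and not the structure in the particle. Of 430 nucleotides 152 were predicted unpaired (35.3%). They held 42 of the 64 nucleotides modified in the mutant (65.6%) and 49 of the 67 modified in Erb1-depleted cells (73.1%). Mean normalized reactivity in the mutant was 0.203 at predicted unpaired and 0.0688 at predicted paired nucleotides. In Erb1-depleted cells the means were 0.270 and 0.0848. The unpaired nucleotides were richer in adenosine (42.8% against 15.8%), and the part of base composition in this contrast was not tested. Among adenosines alone, 25 of 65 predicted unpaired and 10 of 44 predicted paired ones were modified in the mutant, and 33 and 8 in Erb1-depleted cells. The run of 1794 to 1800 went against the prediction, since all 7 of its nucleotides were predicted paired and all 7 were modified in both strains.

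The fold held 10 hairpins, none with a GNRA tetraloop (GNAA or GNGA) or a TTCG tetraloop as its whole predicted loop on the transcribed strand. The 3 hairpins described next are shown with the loop in capitals.
25S 1503 to 1512: aacAGCAgtt
25S 1560 to 1579: ggcctgATTTTATGcaggcc
25S 1627 to 1656: tcttcacgGTAACGTAACTGAAtgtggaga
The loop 1506 to 1509 was the most reactive of the 10 in both strains, with a mean normalized reactivity of 0.451 in the mutant and 0.708 in Erb1-depleted cells. Its stem had 0.0413 in the mutant and 0.00627 in Erb1-depleted cells. In the loop 1566 to 1573, A1571 and U1572 were modified in both strains. The loop 1635 to 1648 was low in the mutant, with a mean of 0.0480, a highest score of 0.372 and 0 modified nucleotides. In Erb1-depleted cells it had a mean of 0.260 and 4 modified nucleotides. The loop 1600 to 1607 was low in both, at 0 in the mutant and 0.0206 in Erb1-depleted cells. In the 3' part the loop 1761 to 1764 had 0.272 in the mutant, with 4 modified nucleotides, and 0.257 in Erb1-depleted cells, with 2. Loops were above their own stems in 5 of 10 hairpins in the mutant and in 8 of 10 in Erb1-depleted cells.

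**Figure D2:**
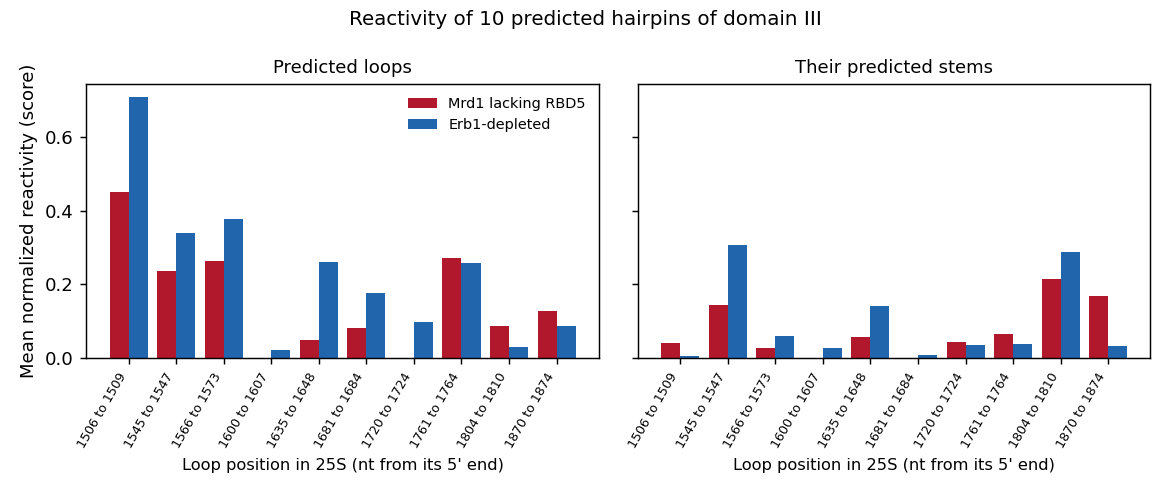
Mean normalized reactivity (score) of the 10 predicted hairpin loops of domain III (left) and of their predicted stems (right), with the mutant left of Erb1-depleted cells at each loop position. The loop 1506 to 1509 is highest in both strains, and the loop 1635 to 1648 has 0.0480 in the mutant and 0.260 in Erb1-depleted cells.

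Setting the strains against each other gave 31 called and modified nucleotides in domain III, in 15 runs of adjacent positions. These are 7.23% of the 429 nucleotides compared, where 5.96% of the transcript was called by the same rule. Of the 31, 3 were higher in the mutant and 28 in Erb1-depleted cells. Over the transcript 0.81% of nucleotides were called toward the mutant and 5.15% toward Erb1-depleted cells, and in domain III the shares were 0.699% and 6.53%. The shares are near the background, so on the deposited scale the number of calls does not set domain III apart. There, 13.6% of the transcript's calls and 9.68% of the domain's were toward the mutant. On normalized scores with negatives at 0 these percentages were 41.5% and 9.68%, further apart. With each strain's own normalization factor they were 27.2% and 17.4%, at equal SD 29.6% and 16%, and after quantile normalization 27.9% and 17.4%. Of the 28 calls toward Erb1-depleted cells, 14 were modified in both strains and 14 in Erb1-depleted cells alone.

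The direction of the difference depended on the position within the domain. Cut into 10 stretches of 43 nt, the domain had a negative mean raw difference (mutant minus Erb1-depleted) in each of the first 7 stretches (25S 1451 to 1751), from -0.0597 to -0.0108. It had a positive one in each of the last 3 (25S 1752 to 1880), at 0.0518, 0.0459 and 0.0813. In the first 7 stretches together the mean raw score was -0.0612 in the mutant and -0.0268 in Erb1-depleted cells, and 207 of 301 nucleotides were lower in the mutant. In the last 3 the mean raw score was -0.0129 in the mutant and -0.0712 in Erb1-depleted cells, and 105 of 128 nucleotides were higher in the mutant. All 28 calls toward Erb1-depleted cells lay in the first 7 stretches and all 3 toward the mutant in the last 3. The mean over the whole domain, -0.0064, is the balance of these opposite pieces. The cut after the 7th stretch was chosen after the values were seen.

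The turn was also present among all called nucleotides, modified or not. Without the filter on modification 141 nucleotides of the domain were called (32.9%, where 25.2% of the transcript was). Of these, 72 were higher in the mutant (16.8%, background 13.7%) and 69 in Erb1-depleted cells (16.1%, background 11.5%). In the first 7 stretches 10 were higher in the mutant and 69 in Erb1-depleted cells, and in the last 3 the numbers were 62 and 0. The last nucleotide called toward Erb1-depleted cells was 1713, and the calls from 1756 on were all toward the mutant. G1713 (-1.25) was called only with C1709 (1.54) and C1710 (1.26) in its window, which were higher in the mutant. The last call toward Erb1-depleted cells before it was A1697. Of the 141 calls, 6 needed differences of both directions. With each strain's own normalization factor, at equal SD and after quantile normalization, the numbers in the last 3 stretches were 55 toward the mutant and 0 toward Erb1-depleted cells. In the first 7 they were 0 toward the mutant and 99 to 104 toward Erb1-depleted cells. On normalized scores with negatives at 0 they were 7 and 0 in the last 3 stretches and 0 and 47 in the first 7. All 7 lay in stretch 10 (25S 1838 to 1880). On that scale stretches 8 and 9 had 0 calls in either direction, with mean differences of 0.0086 and 0.0031. Of the 62 nucleotides called toward the mutant in the last 3 stretches, 42 had a normalized score of 0 in both strains. Their difference thus lies between negative raw scores, which by the authors' normalization count as unreactive. With a wide running median of the difference taken out, the mean of the first 7 stretches was -0.000677 and that of the last 3 was 0.0117, against -0.0344 and 0.0595 without it.

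Pieces of one direction also occurred beside the domain. Stretches of the same 43 nt had mean raw differences of 0.0278 just before it (25S 1408 to 1450) and -0.0430 at 25S 1236 to 1278. After it the mean was 0.0183 at 1881 to 1923 and -0.0163 at 1924 to 1966, and from 1967 to 2095 it lay between 0.0733 and 0.0900. Within the 30 stretches from 1021 to 2310, the 7 negative stretches that open domain III were the longest series of one sign.

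**Figure D3:**
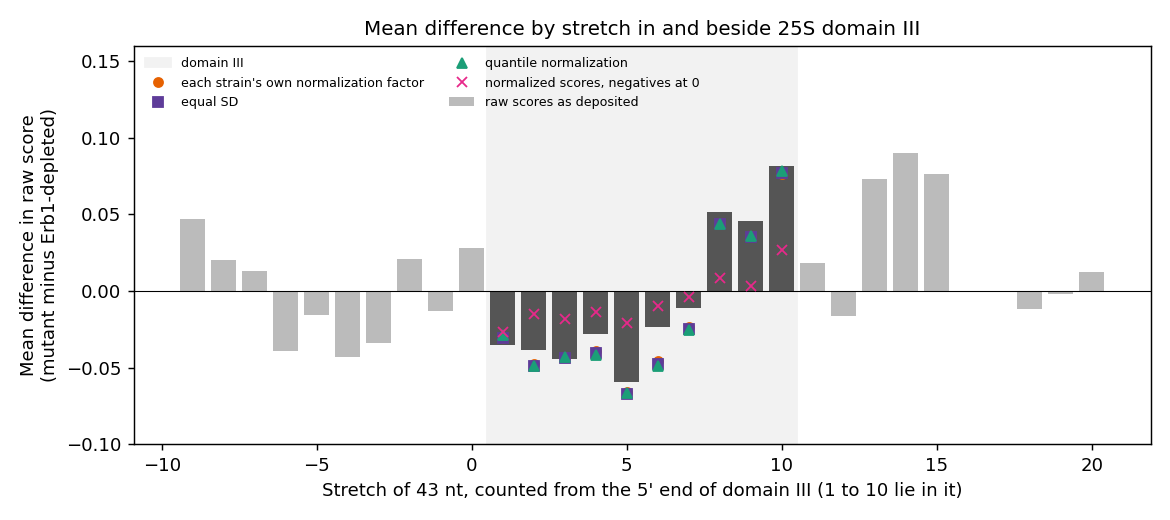
Mean difference in raw score (mutant minus Erb1-depleted, bars) in 30 stretches of 43 nt, of which 1 to 10 are domain III (shaded, dark bars). Symbols give the domain's stretches on 4 other scales, and on each of them stretches 1 to 7 are below 0 and 8 to 10 above it.

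In the 5' part the longest run of calls was 1484 to 1489, and A1481 and A1482 just before it were called too. A1481 had a normalized reactivity of 0.883 in the mutant and 1.12 in Erb1-depleted cells, and A1482 had 0.414 and 0.750. The guanosines G1485, G1486, G1487 and G1488 had 0.420, 0.323, 0.316 and 0.0855 in the mutant, against 0.766, 0.622, 0.629 and 0.573 in Erb1-depleted cells. U1484 had 0.264 in the mutant and 0.427 in Erb1-depleted cells, and A1489 0.178 and 0.504. Over 1484 to 1489 the mean was 0.264 in the mutant and 0.587 in Erb1-depleted cells. All 6 were modified in Erb1-depleted cells and none in the mutant. The 4 guanosines are among the 7 of the domain that were modified in Erb1-depleted cells alone, and no guanosine was modified in the mutant alone. The neighbouring run 1463 to 1466 had a mean of 0.504 in the mutant and 0.748 in Erb1-depleted cells, with 3 and 4 nucleotides modified.

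In the predicted loop of the hairpin 1627 to 1656 the difference was larger. A1642 had a normalized reactivity of 0.105 in the mutant and 0.777 in Erb1-depleted cells, with a standardized difference of -2.00. A1643 had 0.372 in the mutant and 0.836 in Erb1-depleted cells. A1647 had 0 and 0.521, with -2.15, and A1648 0.0163 and 0.402. All 4 were modified in Erb1-depleted cells alone. For A1643 this was near the threshold, since its posterior in the mutant was 0.916. G1646 between them had the lowest standardized difference of the domain, -2.27, with 0 in the mutant and 0.475 in Erb1-depleted cells, but was modified in neither. Without the filter on modification the calls ran unbroken from 1640 to 1654, the longest run toward Erb1-depleted cells. It reaches from the predicted loop into the 3' strand of the predicted stem. The mean raw score of these 15 nucleotides was -0.0604 in the mutant and 0.0526 in Erb1-depleted cells. The bounds of loop and stem are unsure here. Predicted pairing probabilities were 0.803 at G1635 and 0.684 at G1640 in the loop, but 0.289 at G1655 in the stem. At the called A1642, A1643, A1647 and A1648 they were 0.00288, 0.115, 0.230 and 0.368.

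U1695, A1696 and A1697 formed another run. Normalized scores were 0.0205 in the mutant and 0.683 in Erb1-depleted cells at U1695, 0 and 0.536 at A1696, and 0.278 and 0.396 at A1697. U1695 had the lowest standardized difference among the called and modified nucleotides, -2.18. The posterior nevertheless took all 3 as modified in the mutant as well. Posterior and reactivity parted in the mutant at 7 modified nucleotides of domain III with a normalized score under 0.1 (U1695, A1696, U1721, A1723, C1762, U1763 and C1793), 5 of them at 0. That is 10.9% of the mutant's modified nucleotides here and 3.20% over the transcript. In Erb1-depleted cells no modified nucleotide of the domain lay under 0.1, where 1.44% did over the transcript. These 7 lie between 1695 and 1793, and in this range a modified nucleotide of the mutant need not have a high score.

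Other calls toward Erb1-depleted cells included nucleotides that were modified in both strains. A1537 had a normalized reactivity of 0.776 in the mutant and 0.906 in Erb1-depleted cells (standardized difference -2.01). A1587 had 0.310 and 0.607 (-1.38), and C1508, in the loop of 1506 to 1509 and not modified in the mutant, 0.240 and 0.585 (-1.32). G1592 had 1.19 and 1.49 (-1.21). Its window reached 3 nucleotides past 1 SD only with U1595 (1.04) and C1596 (1.12), which were higher in the mutant, and G1592 was the only 1 of the 31 called nucleotides to need differences of both directions. A1465 had 0.676 and 0.845 (-1.38). Without smoothing A1537 (-0.79), A1465 (-0.86) and G1592 (-1.51) were no longer called. With a wide running median taken out, A1481 (-1.40), G1488 (-0.94), A1587 (-0.92), C1508 (-0.75) and G1592 (-0.71) were no longer called. U1695, A1647, A1537, A1642 and A1465 still were. C1508, A1465 and G1592 were no longer called on each strain's own normalization factor, at equal SD or after quantile normalization, with values from -1.12 to -0.95, and G1592 also not on normalized scores with negatives at 0.

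In the 3' part A1842 had a normalized reactivity of 0.418 in the mutant and 0 in Erb1-depleted cells, with a standardized difference of 1.47. A1867 had 0.514 in the mutant and 0.149 in Erb1-depleted cells (1.39), and U1777 had 0.519 and 0.156 (1.07). A1867 was modified in both strains, and the other two in the mutant alone. A1867 and U1777 were no longer called on normalized scores with negatives at 0 (1.28 and 0.71) or without smoothing (0.86 and 0.85), and none of the 3 with a wide running median taken out (0.70 each). A1842 opened the longest run of calls in the domain without the filter on modification, nucleotides 1842 to 1862, shown here in capitals.
25S 1838 to 1866: gataACCGCAGCAGGTCTCCAAGGTgaac
In all 21 nucleotides Erb1-depleted cells had a normalized reactivity of 0, and the mean in the mutant was 0.157. The highest of the mutant were G1848 (0.509), A1858 (0.471), A1842 (0.418) and A1850 (0.395). A1842 was the only one modified by the posterior. The mean raw score was 0.0129 in the mutant and -0.101 in Erb1-depleted cells. C1854 had the highest standardized difference of the domain, 2.60, with raw scores of -0.0748 in the mutant and -0.220 in Erb1-depleted cells and a normalized score of 0 in both.

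**Figure D4:**
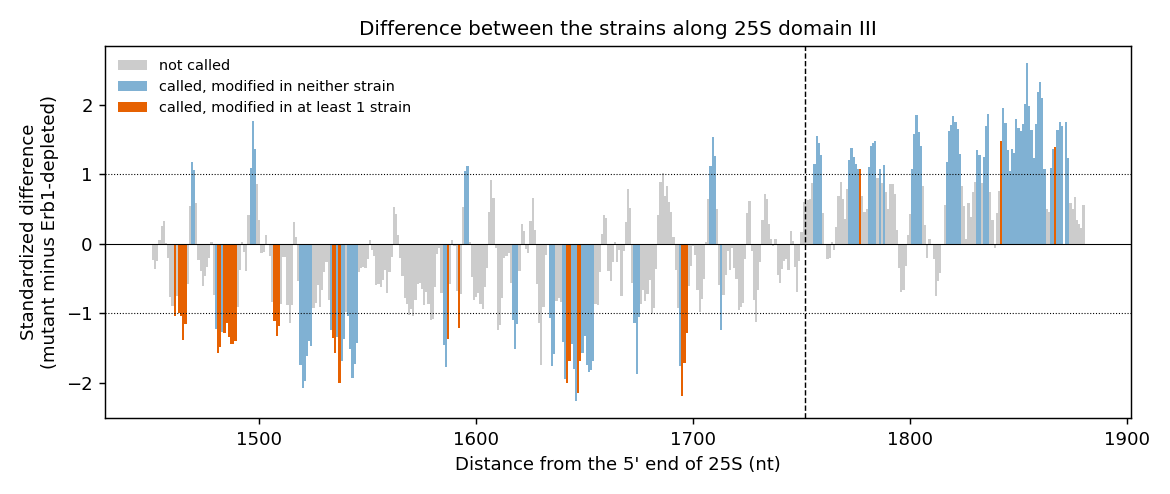
Standardized difference (mutant minus Erb1-depleted, bars, in SD of all differences over the transcript) along domain III. The dashed line marks the start of the last 3 stretches, dotted lines mark 1 and -1, and the 31 called and modified nucleotides are orange, with 28 below 0 left of the dashed line and 3 above 0 right of it.

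Of the 22 nucleotides modified in Erb1-depleted cells alone 19 lay in the first 7 stretches, while the 19 of the mutant alone were spread over both pieces, 10 in the first 7 and 9 in the last 3. Among the 5 most reactive of those modified in the mutant alone were U1742 (0.634 in the mutant, 0.424 in Erb1-depleted cells), A1589 (0.533 and 0.386), U1777, U1549 (0.437 and 0.503) and A1842. U1742, A1589 and U1549 were not called, and U1549 was lower in the mutant, so the posterior and the score differ there. U1549 was not alone in this. Also modified in the mutant alone, but with the lower score there, were U1681 (0.160 and 0.399), A1683 (0.164 and 0.311) and C1551 (0.399 and 0.439). The same held for U1721 (0 and 0.214), A1723 (0 and 0.167), C1762 (0 and 0.0988) and U1763 (0 and 0.00368). The rest of the 19, such as C1792 (0.279 and 0) and A1816 (0.223 and 0.0688), were higher in the mutant. Being modified in the mutant alone thus need not mean a higher reactivity there. Among the 5 of Erb1-depleted cells alone were A1643, A1460 (0.526 in the mutant and 0.819 in Erb1-depleted cells), A1642, G1485 and A1482. In the first stretch (25S 1451 to 1493) 9 nucleotides were modified in the mutant and 22 in Erb1-depleted cells, and all 9 were among the 22. In the last 3 stretches 3 were found in Erb1-depleted cells only.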

How the data were processed

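Yeast 35S pre-rRNA in particles purified through TAP-tagged Mrd1 was probed with 1M7 (both strains) or DMSO (the mutant), giving 6 libraries in 3 groups. Random hexamers primed the cDNA (labels' protocols). Novoalign aligned the reads, per the submitters' processing notes; the version was not given in the sources used here. Deposited values are scores per nucleotide, per the file headers: raw and normalized reactivity, BUM_HMM posterior and deltaSHAPE columns, with a placeholder (dropped here) where a value is missing. The normalized score equals the raw score times 5.21 (mutant) or 4.35 (Erb1-depleted), with negatives at 0, as found from the values. The making of the raw scores, and the controls behind those of Erb1-depleted cells, were not given in the sources used here.

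Applied to the deposited standardized differences and Z-factors of all 6541 compared nucleotides, the calling rule differed from the authors' deposited calls at 0 positions. This match covers the threshold, Z-factor and window steps only. Calls recomputed from the raw scores were not compared with the deposited ones. The rule was also run on simulated shifts with the deposited Z-factors, where the requirement was recovery of most nucleotides with the largest shift. That does not show how it performs on differences near 1 SD. The rule also needs a deposited Z-factor above 0, which was kept for all alternatives. The offset of 25S, 3251 nt, equals that of RefSeq's R64 annotation. Pairing was predicted with RNAfold (ViennaRNA 2.7.2, default energies, 37 degrees Celsius). Named nucleotides are the 10 with the highest reactivity among those modified per strain and up to 10 of the largest called differences per direction (1 per 5 nt), the 5 highest of those modified in 1 strain alone, the longest called runs and unmodified stretches, and the hairpin loops. Others (the shared runs, all members of a named run or loop, nucleotides with posterior and score apart, U1595, C1596, G1646, C1854 and the highest of 1842 to 1862) were chosen after their values were seen. The domain, lists and thresholds were chosen with earlier results of these data known. The alternatives were posteriors of 0.9 and 0.99, 4 other scales, a running median, no smoothing, a threshold of 2 SD, no filter on modification, windows of one direction and narrower bounds. The software was Python 3.11.15 with numpy, pandas and scipy.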

Additional observations from a re-analysis of the deposited data

How the results depend on the processing

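At posteriors of 0.9 and 0.99 and with the bounds drawn in by 20 nt, the counts of modified and called nucleotides of domain III stayed within 1.5 times of those reported. On the 4 other scales 3 to 4 nucleotides were called toward the mutant and 19 to 28 toward Erb1-depleted cells. With a wide running median taken out, 1 nucleotide was called toward the mutant, and without smoothing 1 toward the mutant and 18 toward Erb1-depleted cells. With a threshold of 2 SD the numbers were 0 and 0, and without the filter on modification 72 and 69. The mean raw difference of the domain, -0.0064, became -0.0142 with the factor of each strain, -0.0148 at equal SD, -0.0147 after quantile normalization and 0.00303, of the other sign, with the running median out. That of the first 7 stretches, -0.0344, was -0.0154 on normalized scores with negatives at 0 and -0.000677 with the running median out. That of the last 3, 0.0595, was 0.0126 and 0.0117. A running median takes out shifts longer than its window by construction, so it cannot show the turn. The 4 scales for the pieces, the median in place of the mean and the pairing probability in place of the best fold were chosen after the data were seen. All 13 named called nucleotides kept their direction on the 4 other scales, with the running median out and without smoothing. The other posteriors, the threshold of 2 SD and windows of one direction leave the difference itself unchanged. Under these the direction could not change. On each of the 4 scales taken singly 10 of the 13 were still called, though not always the same ones, and 8 were called on all 4. Without smoothing 8 were called and with the running median out 5. Where only differences of one direction count in a window, an alternative added after the data were seen, 3 nucleotides were called toward the mutant and 27 toward Erb1-depleted cells. No paired analysis was possible because the sheet has 1 column per strain and carries no replicate numbers, and no library could be left out for the same reason. The depth behind the scores is unknown.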
